A study of Mus musculus and synthetic RNA with 74 samples.

Results

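The genes Zscan4c, Zscan4d, Zscan4f, Zfp352, Tcstv1 and Tcstv3, all known from the 2-cell stage, were examined in Mettl16 mouse embryos. They were taken by name as genes of zygotic genome activation, and these 6 were listed at both stages, among 19639 genes that were. The embryos came from superovulated Mettl16 +/- females mated to Mettl16 +/- males, and each was sequenced singly from its polyadenylated RNA with the Smart-seq2 protocol. The KO allele carries a cassette of stop codons in exon 3 of Mettl16, in 1 mouse line made in B6D2F1/J embryos and bred with C57BL/6JRj. At E2.5, the morula stage, there were 5 WT, 14 HET and 12 KO embryos, 31 in all. At E3.5, the blastocyst stage, there were 18 WT, 9 HET and 12 KO embryos, 39 in all. The authors read the genotype of each embryo from its own Mettl16 reads. All embryos of a stage, the WT included, share the hormone treatment of the mother and a heterozygous mother and father.

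The genome of the mouse embryo is first transcribed in force at the 2-cell stage, and a set of genes switched on there is silenced again within the next divisions. The Zscan4 genes encode proteins with a SCAN domain and zinc fingers, and are known from embryonic stem cells for their part in telomere maintenance. Zfp352 encodes a zinc finger protein, and Tcstv1 and Tcstv3 belong to a family of small genes, named for this stage. The transcription factor Dux is a known activator of the set. The question put to these data was whether transcripts of such genes are still present in morulae and blastocysts, and whether they could persist in KO embryos.

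The values used are means. Each is the authors' mean normalized count of a stage, with the genotypes pooled, and was taken to cover the 31 embryos of E2.5 and the 39 of E3.5 listed above. There is thus 1 value per gene and stage, no spread between embryos and no test. In units of 1000000 normalized counts, the E2.5 means sum to 23.6 over 20330 genes and the E3.5 means to 27.1 over 21199 genes. As the stages were normalized separately, levels at both stages are set side by side as a share of these sums in ppm, the normalized counts of the gene per 1000000 of all genes. The stages also differ in their mix of genotypes, with WT embryos 16.1% of E2.5 and 46.2% of E3.5, so stage and genotype cannot be told apart in these means. The level of Mettl16 itself, 778 normalized counts at E2.5 and 669 at E3.5, is likewise a mean over all genotypes and does not check the labels. A single mean can come from similar levels in all embryos or from high levels in a few, which cannot be told apart here.

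The plot of shares by stage gives the outline. Zscan4c, Zscan4d, Zscan4f, Zfp352 and Tcstv3 had a lower share of all normalized counts at E3.5 than at E2.5, by 8.36-fold to 57.2-fold, while Tcstv1 had a share 1.27-fold higher. So 5 of the 6 genes were lower by over 2-fold, where 23.2% of all 19639 genes were (4558 genes). The median log2 difference in share, E3.5 minus E2.5, was -3.22 over the 6 genes and 0.30 over all genes. These are counts and medians of single pooled values, with no test. In whole embryos fewer cells with a transcript and less of it per cell cannot be told apart.

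**Figure D1:**
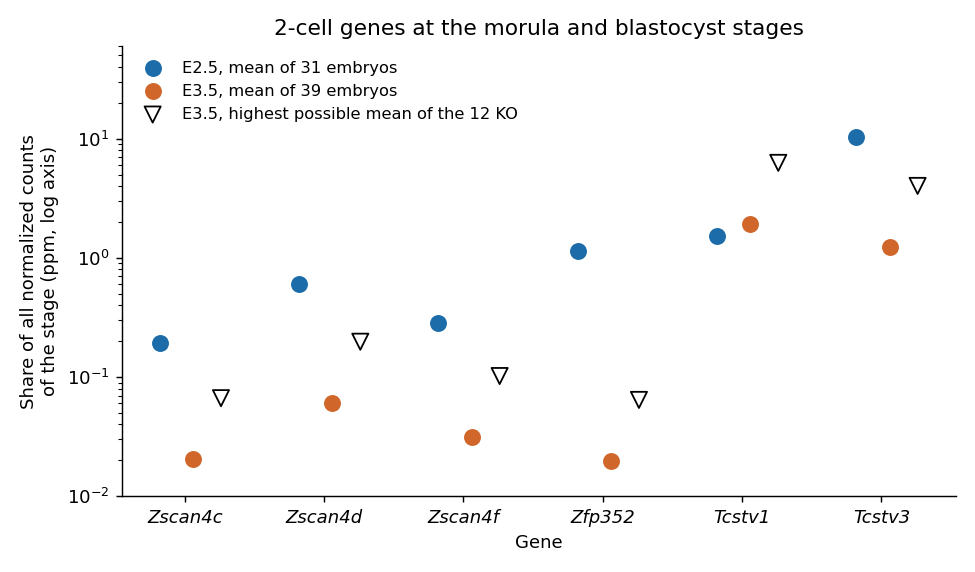
Share of all normalized counts of the stage in ppm (log axis) for the 6 genes. Filled points are the means over all embryos of E2.5 and of E3.5, with no error bars because no spread between embryos was available, and open triangles are the highest mean that the 12 KO embryos of E3.5 could have had. The triangle is the E3.5 point times 39 over 12 for every gene, and lies below the E2.5 mean for all but Tcstv1.

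The Zscan4 genes are near-identical copies on chromosome 7, and their sequence bears on every value given for them. On GRCm38 (mm10), Zscan4c (NM_001013765) lies at chr7:11005745-11010547 on the plus strand, Zscan4d (NM_001100186) at chr7:11161643-11166148 on the minus strand and Zscan4f (NM_001110316) at chr7:11397915-11402318 on the plus strand. Each has 4 exons. Over their spliced exons Zscan4c and Zscan4f are 99.6% identical, with 7 differing bases of 1806 aligned, Zscan4c and Zscan4d 97.6% identical, with 48 of 1991, and Zscan4d and Zscan4f 97.8% identical, with 40 of 1795. The third exon, 160 bases of coding sequence in each gene, shows how little separates them. It lies at chr7:11008767-11008926 (Zscan4c, plus strand), chr7:11162991-11163150 (Zscan4d, minus strand) and chr7:11400960-11401119 (Zscan4f, plus strand), and is printed 5′ to 3′ from the RefSeq genome GRCm38.p6, with the base that differs from Zscan4c in capitals.
Zscan4c: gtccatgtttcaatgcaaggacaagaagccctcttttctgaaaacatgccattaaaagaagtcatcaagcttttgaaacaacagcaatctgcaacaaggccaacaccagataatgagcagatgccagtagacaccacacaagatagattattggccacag
Zscan4d: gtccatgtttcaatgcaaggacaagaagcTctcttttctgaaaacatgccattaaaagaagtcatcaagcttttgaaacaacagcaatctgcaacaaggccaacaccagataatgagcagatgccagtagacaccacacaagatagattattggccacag
Zscan4f: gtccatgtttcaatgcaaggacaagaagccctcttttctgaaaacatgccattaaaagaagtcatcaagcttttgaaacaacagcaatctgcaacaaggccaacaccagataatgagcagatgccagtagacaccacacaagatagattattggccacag
Zscan4f has the same 160 bases as Zscan4c, and Zscan4d differs by 1 base, C30T, counted from 1 at the 5′ end of the exon with the base of Zscan4c first.

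Reads were paired and at most 80 nt long. The share of 80-nt stretches of exon that occur at 1 place in the genome says how far 1 read of a pair can name its gene, and a pair, or a read across a splice junction, can do so more often. Of the 80-nt windows within the exons of Zscan4d, 63.1% occur once in the genome (1058 of 1676). Of those of Zscan4c 23.9% do (469 of 1960), and of those of Zscan4f only 5.29% (80 of 1513). Windows of these genes occur up to 9 times. In the third exon printed above no window of Zscan4c or Zscan4f occurs once, and 30 of 81 of Zscan4d do. The levels of the single copies are therefore uncertain, Zscan4f most of the 3. Their sum does not depend on how reads are split among the 3, but reads shared with further copies can still change it.

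Among the copies Zscan4d had the highest level. Its mean was 14.3 normalized counts at E2.5 and 1.65 at E3.5, a share of 0.608 and 0.0609 ppm, 9.99-fold lower at E3.5. Zscan4f had 6.74 and 0.852 normalized counts, a share of 0.286 and 0.0314 ppm, 9.12-fold lower. Zscan4c had 4.57 and 0.555 normalized counts, a share of 0.194 and 0.0205 ppm, 9.49-fold lower. The order of the copies was the same at both stages, also per kb of exon, where the mean normalized counts at E2.5 were 7.19 (Zscan4d), 3.69 (Zscan4f) and 2.01 (Zscan4c). The folds of the 3 copies lay close together, but reads shared between copies make them dependent on each other.

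Summed, the 3 copies had 25.6 normalized counts per embryo at E2.5 and 3.06 at E3.5, a share of 1.09 and 0.113 ppm, 9.66-fold lower. These are low levels: the median gene listed had 36.4 normalized counts at E2.5 and 51.6 at E3.5. Zscan4d stood at percentile 41.0 of all listed genes at E2.5 and 24.1 at E3.5, Zscan4f at 33.9 and 19.8, and Zscan4c at 30.2 and 17.2. Added over all 39 blastocysts, the normalized counts came to 64.5 for Zscan4d, 33.2 for Zscan4f and 21.7 for Zscan4c, against 444, 209 and 142 over the 31 morulae.

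Zscan4a and Zscan4b, the other copies listed in both tables, had E2.5 means of 10.9 and 0.744 normalized counts and E3.5 means of 0.0240 and 0.117. The E3.5 mean of Zscan4a comes to 0.934 normalized counts in all 39 embryos together, so no fold is given for it. With these included, 5 copies had 37.3 normalized counts at E2.5 and 3.20 at E3.5, a share of 1.58 and 0.118 ppm, 13.4-fold lower. On these gene values Zscan4a ranked second to Zscan4d at E2.5 and last of the 5 at E3.5. On the exon sums of the authors' other table, described next, it ranked second at both stages, with 7.25 and 0.247 normalized counts, the latter 9.64 normalized counts over all 39 embryos.

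A second table of the authors holds reads aligned to the genome and counted by exon and intron, and it places the Zscan4 reads differently. In it the exons of Zscan4d summed to 9.64 normalized counts at E2.5, 67.3% of its gene value, while those of Zscan4c summed to 0.994 (21.7%) and those of Zscan4f to 0.961 (14.3%). At E3.5 Zscan4d had 1.12 (67.7%) and Zscan4f 0.217 (25.4%), and every exon of Zscan4c was listed at 0. On these sums the log2 difference in share of Zscan4f was -1.90, against -3.19 on its gene values. Over the 3 copies together the exons summed to 11.6 normalized counts at E2.5 and 1.34 at E3.5, 45.2% and 43.7% of their summed gene values. The same ratio had a median of 172% over 12423 genes with a gene value of at least 10 at E2.5, with quartiles of 126% and 212%. Zscan4c and Zscan4f are below that cut. Zfp352, Tcstv1 and Tcstv3, at 100.1%, 108% and 101% at E2.5, also lay below the lower quartile. Among the 6 genes, the 3 Zscan4 copies had both the fewest windows found once and the lowest ratios. Within the 5 listed copies the order of the ratios did not follow that of the windows: Zscan4b, with 12.4% of its windows found once, had a ratio of 34.6% at E2.5, above that of Zscan4c, and Zscan4a, with 48.4%, had 66.5%. How the alignment and counting treated reads with several matches is not given in the sources used here, and their part in the low ratio was not tested.

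**Figure D2:**
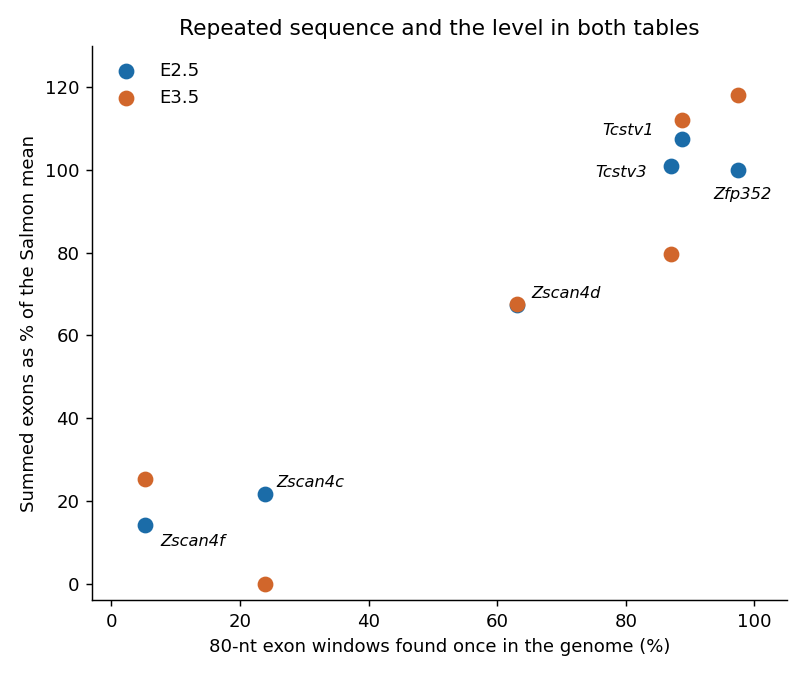
Summed exon values of the exon table as a percentage of the gene value (vertical axis) against the percentage of 80-nt exon windows found once in the genome (horizontal axis), 1 point per gene and stage. Zscan4c, Zscan4d and Zscan4f reach at most 67.7% on the vertical and 63.1% on the horizontal axis, and Zfp352, Tcstv1 and Tcstv3 have at least 79.7% and 87.1%.

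Along Zscan4d the exon values at E2.5 were 0.0380, 2.46, 2.28 and 4.86 normalized counts for exons 1 to 4, and 0.0301, 0.376, 0.165 and 0.549 at E3.5. Per kb the third exon was highest at both stages, with 14.3 and 1.03 normalized counts per kb. Its introns summed to 0.183 normalized counts at E2.5 and 0.135 at E3.5. The reads of Zscan4d thus lay mainly on its exons. Exon 1 carried few, although all 17 of its windows occur once. In Zscan4c the E2.5 values were 0.0384, 0, 0.140 and 0.815. None of the 393 windows of its second exon, listed at 0, occurs once. The same holds for the second exons of Zscan4f and Zscan4a, which had 0.287 and 1.03 normalized counts at E2.5. In Zscan4f the order was turned, with 0.348 and 0.287 for exons 1 and 2 above 0.0943 and 0.232 for exons 3 and 4, and 0.300 in the first intron. These values of Zscan4c and Zscan4f are each under 1 normalized count per embryo.

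**Figure D3:**
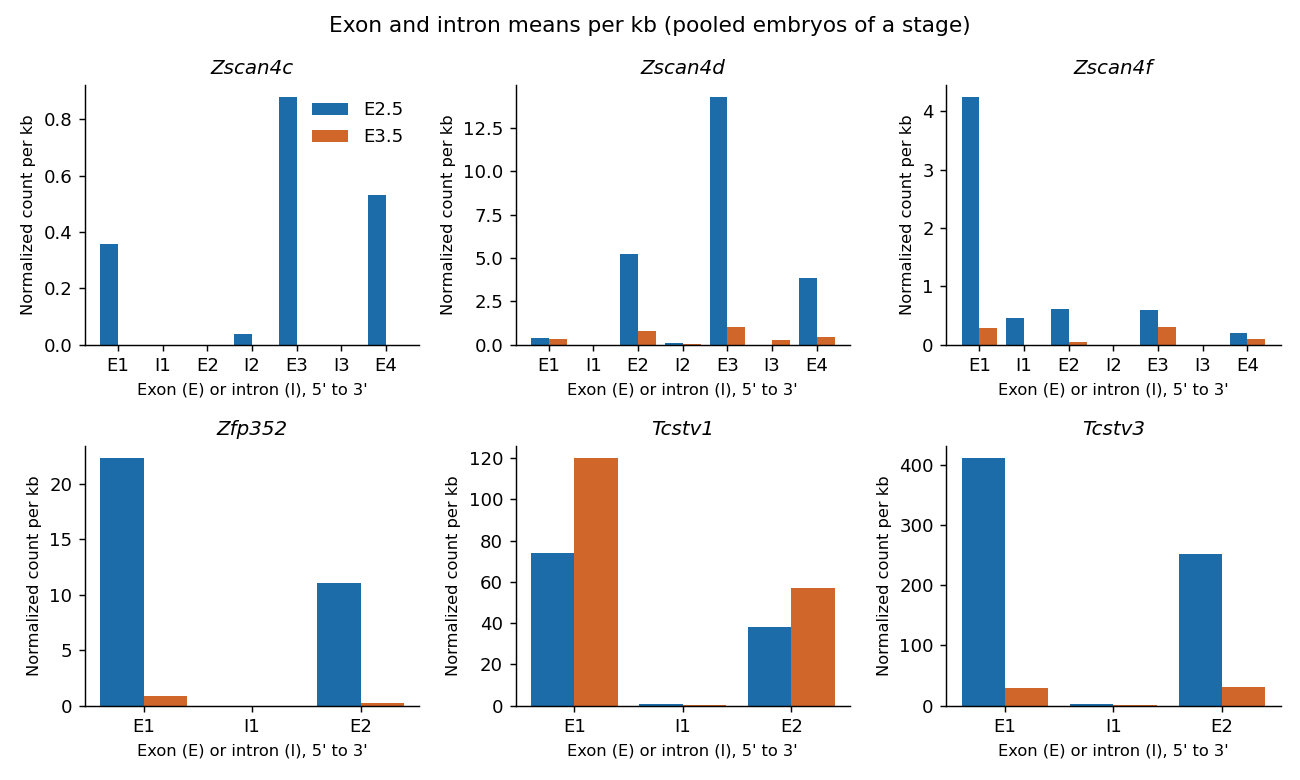
Mean normalized count per kb of each exon (E) and intron (I), numbered 5′ to 3′, for the 6 genes at E2.5 and E3.5, each panel on its own linear scale from 0. Bars are means over all embryos of a stage, with no error bars because no spread between embryos was available. Most of the values lie on exons, with 0.458 normalized counts per kb in the first intron of Zscan4f, and exon bars are higher at E3.5 than at E2.5 in Tcstv1 and in no other of these genes.

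The Zscan4 copies share their promoters as well. The 250 bases before the annotated start, at chr7:11005495-11005744 (Zscan4c, plus strand), chr7:11166149-11166398 (Zscan4d, minus strand) and chr7:11397665-11397914 (Zscan4f, plus strand), differ by 1 base of 227 aligned between Zscan4c and Zscan4f and by 7 of 239 between Zscan4c and Zscan4d. They are printed beside the promoter of Zfp352, chr4:90218570-90218819 on the plus strand, because all 4 genes had a lower share at E3.5. All are from RefSeq on GRCm38.p6, 5′ to 3′, with capitals at TATAAA, the core of a TATA box, and at TGATTCAA, the first letters of a longer sequence known to be bound by Dux.
Zscan4c: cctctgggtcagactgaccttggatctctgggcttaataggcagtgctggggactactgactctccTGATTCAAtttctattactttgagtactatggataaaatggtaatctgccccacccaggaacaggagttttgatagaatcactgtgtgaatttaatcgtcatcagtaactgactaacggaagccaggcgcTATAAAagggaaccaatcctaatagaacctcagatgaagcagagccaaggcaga
Zscan4d: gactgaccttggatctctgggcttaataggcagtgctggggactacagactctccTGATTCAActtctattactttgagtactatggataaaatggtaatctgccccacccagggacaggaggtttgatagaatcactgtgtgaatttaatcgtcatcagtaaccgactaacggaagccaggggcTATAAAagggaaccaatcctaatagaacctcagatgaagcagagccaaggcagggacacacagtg
Zscan4f: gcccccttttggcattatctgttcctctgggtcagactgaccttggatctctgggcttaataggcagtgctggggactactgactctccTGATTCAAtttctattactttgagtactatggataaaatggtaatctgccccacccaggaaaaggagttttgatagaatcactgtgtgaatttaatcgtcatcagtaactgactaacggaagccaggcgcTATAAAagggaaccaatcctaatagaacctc
Zfp352: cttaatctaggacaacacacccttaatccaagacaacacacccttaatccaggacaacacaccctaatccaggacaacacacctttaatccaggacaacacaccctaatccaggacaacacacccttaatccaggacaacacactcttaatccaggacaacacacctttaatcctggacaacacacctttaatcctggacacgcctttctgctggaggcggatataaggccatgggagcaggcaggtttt
Both motifs were searched on both strands and do not overlap each other. TATAAA starts 54, 65 and 31 bases before the annotated start of Zscan4c, Zscan4d and Zscan4f, and TGATTCAA 184, 195 and 161 bases before it, so that both stand at 1 fixed distance from each other in the 3 promoters. Of 32851 promoters of the same length, 12.4% hold TATAAA and 0.539% (177 promoters) hold TGATTCAA on either strand. Neither exact sequence is in the window of Zfp352. Variants of them, such as the tataag near the 3′ end of that window, were not searched. Only the letters TGATTCAA were searched, and whether the rest of the longer sequence follows them was not compared. The bases next after them are ttt in Zscan4c and Zscan4f and ctt in Zscan4d. The motifs were chosen with these promoters in view, and no binding was measured.

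Of the 6 genes, Zfp352 differed most in share between the stages. Zfp352 (NM_153102) lies at chr4:90218820-90225687 on the plus strand of GRCm38 and has 2 exons. Its mean was 26.6 normalized counts at E2.5 and 0.537 at E3.5, a share of 1.13 and 0.0198 ppm, 57.2-fold lower (-5.84 on the log2 scale). It stood at percentile 47.0 of the listed genes at E2.5, and at E3.5 below Zscan4c at 17.2. Over all embryos of the stage the normalized counts came to 826 at E2.5 and 20.9 at E3.5. At E2.5 it was above the Zscan4 copies per kb of exon, with 11.8 normalized counts per kb, and at E3.5, with 0.238, it was below Zscan4d and Zscan4f and near Zscan4c (0.244).

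The reads of Zfp352 can be placed with little doubt. Of its 80-nt exon windows 97.5% occur once in the genome, and the exon table gave 26.7 normalized counts at E2.5 and 0.635 at E3.5, 100.1% and 118% of the gene values. The first exon had 3.48 normalized counts and the second 23.2 at E2.5, and its intron of 4607 bases was listed at 0 at both stages. On the exon table the difference in share was -5.14 on the log2 scale.

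Tcstv1 and Tcstv3, a pair 94.4% identical over their spliced exons (48 differing bases of 859 aligned), differed in direction. Tcstv1 (NM_018756) lies at chr13:119893387-119894785 on the minus strand and Tcstv3 (NM_153523) at chr13:120316862-120318261 on the plus strand of GRCm38, each with 2 exons. Tcstv3 had the highest level of the 6 genes at E2.5, 243 normalized counts, and 33.5 at E3.5, a share of 10.3 and 1.24 ppm, 8.36-fold lower. Tcstv1 had 35.8 normalized counts at E2.5 and 52.3 at E3.5, a share of 1.52 and 1.93 ppm, 1.27-fold higher (0.34 on the log2 scale). Whether the higher share of Tcstv1 exceeds the spread between embryos could not be tested.

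As a result the order of the pair was reversed. Per kb of exon, Tcstv3 was 6.78-fold above Tcstv1 at E2.5 (277 against 40.9 normalized counts per kb), and Tcstv1 was 1.56-fold above Tcstv3 at E3.5 (59.8 against 38.2). Tcstv3 made up 73.4% of the summed share of the 6 genes at E2.5, and Tcstv1 58.5% at E3.5, when that sum had gone from 14.1 to 3.30 ppm. In percentile of the listed genes, Tcstv3 moved from 68.5 to 46.6 and Tcstv1 from 49.8 to 50.1.

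The exon table showed the same reversal. Tcstv1 exons summed to 38.5 and 58.7 normalized counts at E2.5 and E3.5, and Tcstv3 exons to 246 and 26.7. Both exons took part: in Tcstv1 the values went from 10.4 to 16.8 and from 28.1 to 41.9, and in Tcstv3 from 63.8 to 4.44 and from 182 to 22.3. Introns held 0.390 and 0.110 normalized counts in Tcstv1 and 1.23 and 0.474 in Tcstv3. Of the 80-nt exon windows 88.7% of Tcstv1 and 87.1% of Tcstv3 occur once, so most of their sequence, unlike that of the Zscan4 copies, names its gene in a single read. The remaining windows occur up to 4 times, so more than 1 further place can share them. How many reads were placed on the wrong gene, of the pair or elsewhere, was not tested.

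For KO embryos the means, which pool the genotypes, give only a limit, since the authors' own comparisons of genotypes were not used. No normalized count is below 0, so the 12 KO blastocysts together can hold at most the sum over all 39 embryos, and their mean can be at most that sum over 12. For Zfp352 this limit was 1.75 normalized counts, 0.0643 ppm, 5.69% of the mean share of all morulae. For Zscan4d it was 5.37 normalized counts (0.198 ppm, 32.5% of the E2.5 share), for Zscan4c 1.80 (0.0665 ppm, 34.2%) and for Zscan4f 2.77 (0.102 ppm, 35.7%). For Tcstv3 it was 109 normalized counts, 4.02 ppm and 38.9%. In these 5 of 6 genes, then, the mean of the KO blastocysts lay below the pooled mean of the morulae even if every count came from KO embryos. The limit is the E3.5 share times 39 over 12, the same factor for every gene. It thus restates the lower share at E3.5 and is no result about KO embryos. How many of all genes have a limit below their E2.5 share was not counted. Such a gene must be lower by over 2-fold at E3.5, as 23.2% of all 19639 genes were (4558 genes). For Tcstv1 the limit, 170 normalized counts or 412% of the E2.5 share, sets no such bound. On exon sums the limit was 87.0% for Zscan4f and 9.19% for Zfp352, and 44.8% for Zscan4d and 42.0% for Tcstv3, while Zscan4c was listed at 0. The limits take the mean to cover the 39 embryos with a genotype and no other. They say nothing of a difference between KO and WT blastocysts, which was not tested here.

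The same limits at E2.5 are wide. KO morulae could have had a mean of up to 11.8 normalized counts of Zscan4c, 37.0 of Zscan4d, 17.4 of Zscan4f, 68.8 of Zfp352, 92.5 of Tcstv1 and 628 of Tcstv3, if WT and HET embryos had none.

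The other genes of the 2-cell stage, a list of 54 of which 41 were listed at both stages, showed a mixed pattern. Of the 41, 30 had a lower share at E3.5, 23 of them by over 2-fold, and 11 a higher one, 4 by over 2-fold, with a median log2 difference of -1.74. Over all 19639 genes 8380 were lower, 4558 of them by over 2-fold, and 11259 were higher, 6595 of them by over 2-fold. Sp110, a gene of the interferon-induced SP100 family, had the highest mean of the list at E2.5, with 20896 normalized counts at E2.5 and 1248 at E3.5. Tdpoz5, Tdpoz2 and Tdpoz4, of a family with TRAF and BTB domains, had E2.5 means of 2410, 1013 and 533 normalized counts and E3.5 means of 151, 199 and 34.0. AF067063 had 1804 and 299, Ubtfl1 1210 and 306, Gm16381 674 and 224, Tmem92 420 and 61.3, and B020004J07Rik 340 and 57.6. Eif1a, a translation initiation factor gene, stood apart from these with 5095 and 5931 normalized counts, a share of 216 and 219 ppm. These 10 genes were taken by their E2.5 mean, which favours genes that are lower at E3.5. The 4 genes higher by over 2-fold were Zfp560 (57.5 and 210 normalized counts), Gm5662 (26.6 and 106), Gm13078 (0.917 and 3.36) and Gm12794 (1.93 and 7.72), and on exon sums Gm13078 was lower at E3.5 (2.06 and 0.959).

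The gene values of these 10 at E2.5 were all above that of Tcstv3, the highest of the 6 genes, but those of repeated genes are as uncertain as those of the Zscan4 copies. The exons of Tdpoz5 summed to 21.6 normalized counts at E2.5, 0.896% of its gene value, and those of Gm16381 to 80.0 (11.9%), below Tcstv3 in the same table. Tmem92 (211) and B020004J07Rik (224) were also below it there. Dux itself had 3.93 normalized counts at E2.5 and 0.835 at E3.5. Several genes of the list are copies of each other, and Gm8764 and Gm6763 had the same value at both stages, so that the 41 are not independent. Of 12 known regulators of the 2-cell program, 8 had a lower and 4 a higher share at E3.5, or 7 and 5 when scaled to the median of genes with a mean of at least 100. In share, 1 of the 12 was lower and 1 higher by over 2-fold, and 42.7% of all genes had a lower share. The list was not split by whether a gene activates or represses the program. Dppa2 and Dppa4, activators of Dux, had E2.5 means of 27518 and 10840 normalized counts and E3.5 means of 16894 and 8463.

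**Figure D4:**
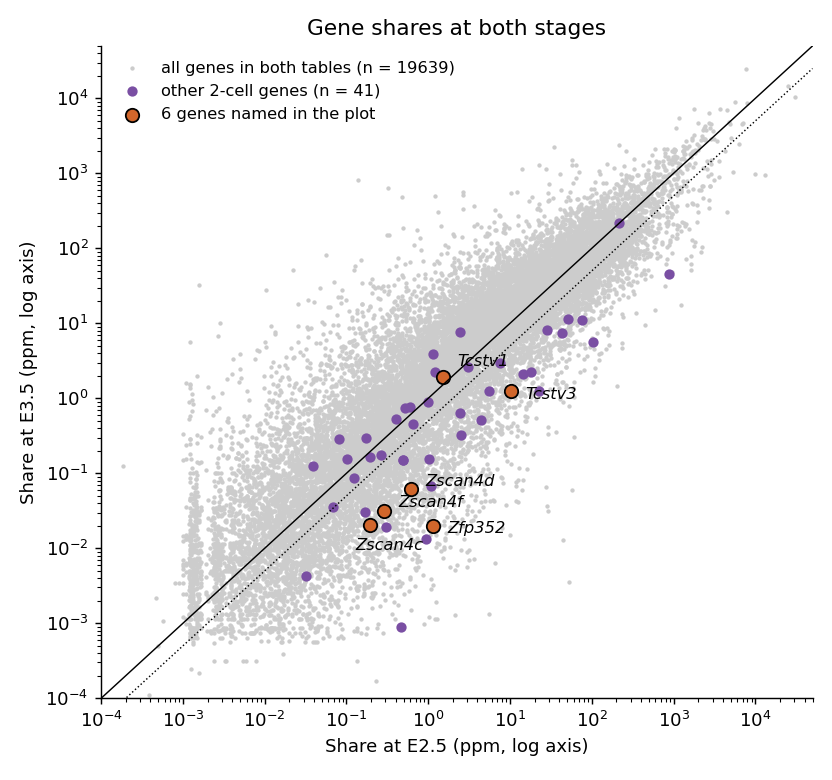
Share in ppm at E3.5 against E2.5 (log axes) for 19639 genes listed at both stages, with 41 other 2-cell genes and the 6 genes named. The solid line marks equal shares and the dotted line a share 2-fold lower at E3.5. Zscan4c, Zscan4d, Zscan4f, Zfp352 and Tcstv3 lie below the dotted line and Tcstv1 above the solid one.

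The labelled stages were checked against lineage markers. Trophectoderm genes were higher at E3.5 in 5 of 6 cases, with Cdx2 at 171 and 1940, Krt8 at 651 and 30838 and Krt18 at 1332 and 35173 normalized counts. The remaining gene, Tfap2c, was lower at E3.5 (5278 and 1849). Among pluripotency genes, 2 of 6 were lower and 4 higher, with Pou5f1 at 9017 and 3527, Nanog at 552 and 4161 and Sox2 at 13.6 and 165. In share, 2 of 4 primitive endoderm genes were higher, Sox17 (71.5 and 174 normalized counts) and Pdgfra (94.3 and 1575), and Gata4 was lower (1268 and 253). Gata6, with 3569 and 3676, had a log2 difference in share of only -0.16. All 6 maternal oocyte genes had a lower share at E3.5, each by over 2-fold (Zp3 1587 and 104, Gdf9 108 and 16.6, Bmp15 50.7 and 1.65), with a median of -3.72 on the log2 scale, and thus differed in the same direction as Zscan4, Zfp352 and Tcstv3. What remains of RNA made at earlier stages and what is made anew cannot be told apart in these means. Of 4 cumulus cell genes, Amh (0.353 and 0.0606) and Has2 (0.917 and 0.630) were listed at both stages, each under 1 normalized count, Foxl2 at E3.5 alone (0.406) and Ptx3 at neither.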

How the data were processed

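RNA of single embryos was sequenced in 31 E2.5 and 39 E3.5 embryos, grouped by the genotype in the labels. The authors assigned reads to NCBI RefSeq transcripts (mm10) with Salmon 0.7.2, summed them to genes, and normalized with DESeq2 1.18.1. Exons and introns were counted with featureCounts after STAR alignment. Libraries carry no strand information, so antisense reads are not separated. The deposited signal used here is the mean normalized count of a stage, taken to cover all its embryos. The same files also hold the authors' log2 fold changes between genotypes with their p-values, which were not used. The planned model fits could not be made without values per embryo. The authors list the number of reads of each embryo library, which differs between embryos and was not used here.

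The 6 genes and all lists were chosen with earlier results of these data known. From the means were computed shares in ppm, percentiles among listed genes, values per kb of exon (each gene has 1 RefSeq model), exon sums, and the highest possible mean of a genotype, the stage's sum divided by its embryos. Of other 2-cell genes the 10 with the highest E2.5 mean were to be named, and at most 3 of each other list in list order. Dux, Zscan4a, Zscan4b, Gm8764, Gm6763, Zfp560, Gm5662, Gm13078, Gm12794, Gata4, Tfap2c and Zfp281 were named after their values were seen. Exon windows of 80 nt were searched exactly on both strands of GRCm38.p6, and spliced exons were aligned with Biopython 1.88. Promoters came from RefSeq, which held 4 of the 6 genes. Python 3.11.15, numpy 2.4.6 and pandas 2.3.3 were used. Of the steps, only the window search and the limit on a genotype's mean were run on simulated data. The in vitro methylation libraries were not used here. Alternatives were another scaling, an added count, exon sums and a minimum mean for percentiles.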

Additional observations from a re-analysis of the deposited data

How the results depend on the processing

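None of the 6 genes changed direction in share under the alternatives run. Among regulators, Zfp281 (log2 difference -0.01) was higher when scaled to the median, and of the other 2-cell genes Gm13078 was lower on exon sums. Without a spread between embryos, a value was taken as moved when it changed by over 1.5 times. With 1 normalized count added at both stages, the log2 difference in share was -2.05 for Zscan4c (-3.25 without it), -2.74 for Zscan4d (-3.32), -2.27 for Zscan4f (-3.19) and -4.37 for Zfp352 (-5.84), as their E3.5 means are near or below the added count. On summed exons it was -1.90 for Zscan4f and -5.14 for Zfp352, and the highest possible KO mean, an alternative chosen after seeing the data, moved from 35.7% to 87.0% of the E2.5 share for Zscan4f and from 5.69% to 9.19% for Zfp352; the cause was not tested. Zscan4c has no value there, since its exons were listed at 0 at E3.5. The other 11 of 17 alternative values of the share stayed within 1.5 times, and 5 of 6 genes remained lower by over 2-fold with the added count and on the median of genes with a mean of at least 100. Of all 19639 genes, 3649 were lower by over 2-fold with the added count and 4431 on that median. Merging gene models changed nothing, as each gene has 1. Percentiles among genes with a mean of at least 10 moved in 5 of 6 cases. No paired analysis was possible because the values pool all embryos of a stage. For the same reason fits with other count tools, and those leaving out each embryo, were not run.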
